A study of Mus musculus with 7 samples.

Results

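The H2 genes are the major histocompatibility complex (MHC) genes of the mouse. They were taken as the protein-coding genes of GENCODE release M1 on chromosome 17 whose symbol begins with H2-, which gave 36 of 22367 protein-coding genes, and all 36 had a value in every library. They span 3.54 Mb of mm9, chr17:34075766-37620497, together with 153 other protein-coding genes. 25 members belong to class I, of which 2 are K/D genes (H2-K1 and H2-D1), 6 are Q genes, 5 are T genes and 12 are M genes. 9 belong to class II, and the other 2, H2-Ke2 and H2-Ke6, carry the name of the K region but encode no MHC molecule.

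DNA with 5fC (5-formylcytosine) was pulled down with a biotin tag and sequenced from J1 cells, a mouse ES cell line of the strain 129S4/SvJae. The conditions were TDG KD, in which a pool of siRNAs against Tdg was transfected in 3 rounds, siRNA control, which received a non-targeting siRNA in the same way, and wild type without siRNA. Each had 2 biological replicates, 6 libraries in all, with 20.4 to 45.9 M (mega) uniquely placed reads, and 1 wild-type input library of 26.5 M reads served every pulldown as background. Wild-type cells grew on irradiated feeder fibroblasts and the siRNA cultures without feeders, so the transfection and the loss of feeders cannot be told apart. J1 is 1 cell line, and Tdg expression was not analysed here.

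Class I molecules, built from H2 heavy chains and beta-2-microglobulin, present peptides from inside the cell to cytotoxic T cells. The K/D genes encode the classical, highly variable chains, whereas the Q, T and M genes encode non-classical chains with narrower roles. Class II molecules are pairs of alpha and beta chains that present peptides from endosomes, mostly on immune cells. ES cells are known for low levels of MHC molecules at the surface. 5fC arises when TET enzymes oxidize 5mC, which in these cells lies mainly at CpG dinucleotides, and TDG can excise it. The pulldown shows where 5fC was present and not whether the DNA was being demethylated.

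The members differ in the CpG content of their start and in how often their sequence recurs in the genome, and both properties are shown here because the levels of 5fC moved with them. For each gene the 30 bases with the most CpGs within 500 bp of the transcription start site (TSS) were read from mm9 on the strand of the gene, with CpGs in capitals. The windows printed are examples, and the CpG count of a window did not always go with the enrichment of its gene. H2-Oa, with 2 CpGs in its window, was enriched in all 6 libraries, and 1 H2-Q2 gene model, with 7, in 3. The first 3 windows printed belong to genes that were enriched in 5 or 6 libraries, and the 4th is the same text in 2 neighbouring Q genes.
H2-Ke6: gaacCGgaCGcCGCGcCGCGccaCGccaCG
H2-K1: aCGgagttCGtgCGcttCGacagCGaCGCG
H2-D1: tccaggagccaatcagCGtCGcCGCGgaCG
H2-Q6 and H2-Q7: CGCGtcccCGCGtCGcccacCGgacctcCG
H2-Ab1: CGcCGcCGgtgCGagcctgacatataaaCG
H2-Aa: cagagacctcccagagaccaggatgcCGCG
H2-M9: cctgccaagtgctgggattaaaggCGttCG
The window of H2-Ke6 (chr17:34164536-34164565, minus strand) held 8 CpGs and occurred once in mm9. That of H2-K1 (chr17:34136830-34136859, minus strand) held 7 CpGs and occurred in 2 places, and that of H2-D1 (chr17:35399978-35400007, plus strand) held 5 and occurred once. The window shared by H2-Q6 (chr17:35561922-35561951) and H2-Q7 (chr17:35576266-35576295), both on the plus strand, held 7 CpGs and occurred in 3 places. H2-Ab1 (chr17:34400536-34400565, plus strand) had 5 CpGs, H2-Aa (chr17:34424704-34424733, minus strand) 2, and H2-M9 (chr17:36780072-36780101, minus strand) 2, each in a window found once.

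A second text shows the same for genes further apart. The densest window of one H2-Q2 gene model (chr17:35479634-35479663, plus strand) and that of H2-Q10 (chr17:35607410-35607439, plus strand) were identical and occurred in 5 places of mm9, also shown with CpGs in capitals.
H2-Q2 and H2-Q10: aCGcagttCGtgCGcttCGacagCGaCGCG
A read of 40 bases from such a stretch cannot always be placed, and only uniquely placed reads were kept. Of the 36 densest windows 29 were found once. The share of 40-mers of gene ±1 kb that occur once in mm9 had a median of 79.6% for K/D, 68.7% for Q, 56.3% for T, 91.8% for M and 95.7% for class II genes, against 95.1% for the other coding genes of chromosome 17. H2-Q7 had the lowest share of all members at 32.0%, followed by H2-Q6 at 36% and H2-T9 at 38.2%.

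The H2 cluster lay mostly in 5fC-enriched sequence, with the exception of its M end. The authors' caller gave every stretch of the genome 1 of 3 states, enriched, background or unconfident. Over the whole cluster 17.1% and 51.5% of the sequence was enriched in TDG KD replicates 1 and 2, against 51.9% and 52.4% in the siRNA controls and 42.9% and 57.8% in wild type. The same shares of the whole genome were 6.32% and 21.9%, 22.2% and 21.1%, and 18.7% and 20.8%. Those of chromosome 17 were 7.39% and 28.6%, 27.8% and 25.2%, and 24.6% and 28.5%. In TDG KD replicate 1 a further 43.0% of the cluster was unconfident, and in the other 5 libraries at most 0.745%. This library stands apart over the whole genome, where it has 19.8% unconfident sequence and the fewest reads of the pulldowns, so the main counts that rest on it are also given without it.

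**Figure D1:**
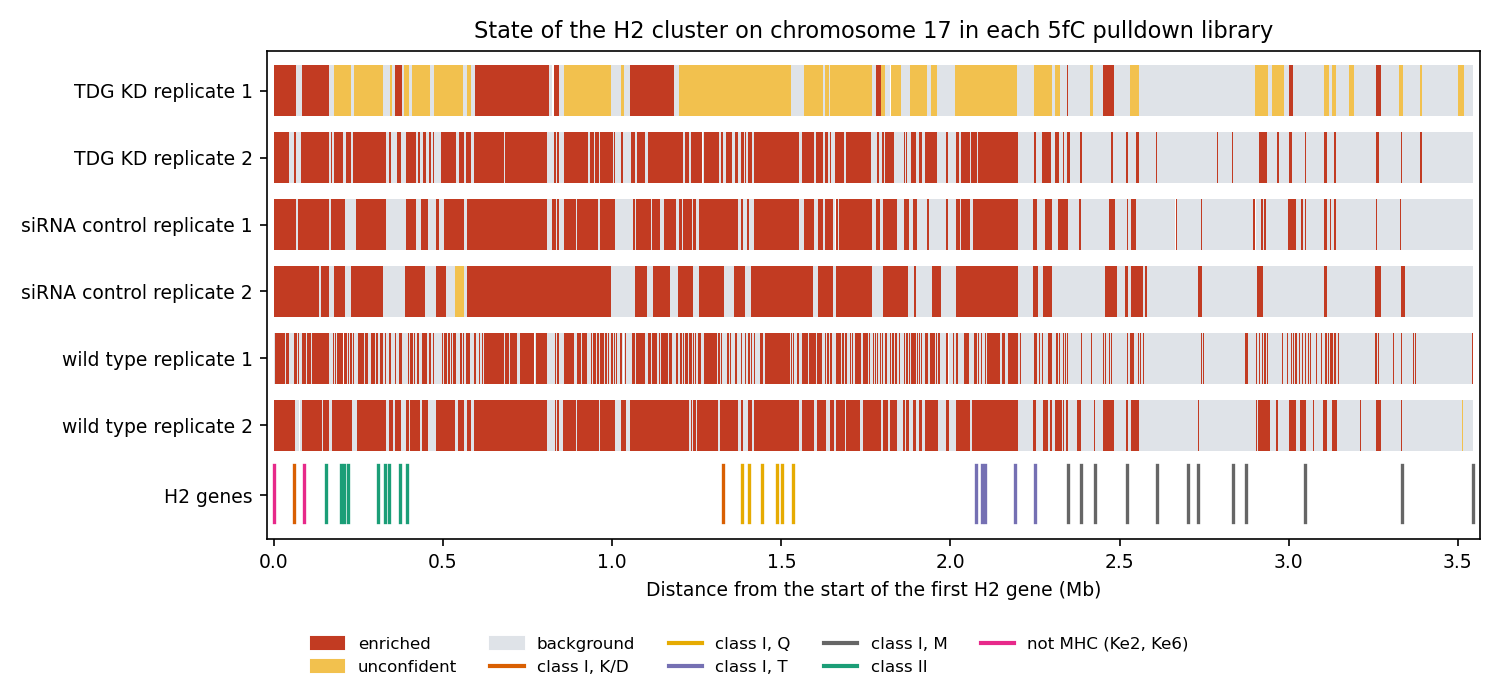
State of the H2 cluster in the 6 pulldown libraries (rows), by distance in Mb from the start of the first H2 gene, with each H2 gene as a tick coloured by class. Enriched sequence covers most of the cluster up to the T genes outside TDG KD replicate 1, where large parts are unconfident, and little of the last 1.20 Mb, which holds the M genes.

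Along the cluster the K end, with H2-K1, H2-Ke2 and H2-Ke6, was enriched over most of its sequence in every library, with 89.6% and 79.9% in TDG KD, 95.7% and 95.8% in siRNA control and 74.5% and 86.3% in wild type. The class II block had 12.3% and 73.2% in TDG KD, against 60.3% and 60.0% in siRNA control and 52.9% and 78.2% in wild type. The D and Q block had 0% in TDG KD replicate 1, where 96.1% was unconfident, 83.2% in TDG KD replicate 2, 84.2% and 75.9% in siRNA control and 62.5% and 86.5% in wild type. The T block likewise had 0% in TDG KD replicate 1, where 73.8% was unconfident, and 55.6% to 76.2% in the other libraries. The M block was the lowest in 5 of the 6 libraries, at 5.11% and 10.2% in TDG KD, 10.8% and 13.0% in siRNA control and 14.3% and 18.2% in wild type. In TDG KD replicate 1 the blocks at 0% lay below it. The M block also had the fewest CpGs, 6.84 per kb against 12.1 to 19.4 per kb in the blocks of the other H2 genes.

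Most members outside the M genes were enriched. A gene was counted as enriched where at least 50% of gene ±1 kb lay in enriched domains. In TDG KD replicates 1 and 2 this held for 6 and 27 of the 36 members, against 14.4% and 44.5% of the 22110 coding genes with a value in every library. In siRNA control it held for 22 members in each replicate, against 42.6% and 41.5% of all genes, and in wild type for 20 and 29 members, against 36.3% and 44% of all genes. As shares these are 16.7% and 75% of members in TDG KD, 61.1% in each siRNA control and 55.6% and 80.6% in wild type. Other coding genes of chromosome 17 were also enriched more often than all genes. Their shares were 18.9% and 57.4% in TDG KD, 54.5% and 51% in siRNA control and 51.3% and 58.4% in wild type. In TDG KD replicate 1 the share of members was below theirs. In both replicates of a condition 5 members were enriched in TDG KD (13.9% of all genes), 20 in siRNA control (36.1% of all genes) and 20 in wild type (34.3% of all genes). Without TDG KD replicate 1 the count for TDG KD is 27 (44.5% of all genes). With unconfident sequence counted as enriched it is 21, for which no share of all genes is given.

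The other genes of the cluster were enriched about as often as the H2 genes or more often. Of the 153 other coding genes inside the cluster 28.1% and 74.5% were enriched in TDG KD, 69.3% and 63.4% in siRNA control and 70.6% and 79.1% in wild type. 16 of these neighbours are olfactory receptor (Olfr) genes, another duplicated family, and of those 1 to 3 were enriched per library. Of the 137 neighbours without Olfr genes 29.9% and 81.8% were enriched in TDG KD, 76.6% and 68.6% in siRNA control and 76.6% and 86.1% in wild type. These shares were above those of the H2 genes in every library. Genome-wide 1.35% to 6.56% of the 1112 Olfr genes were enriched per library.

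**Figure D2:**
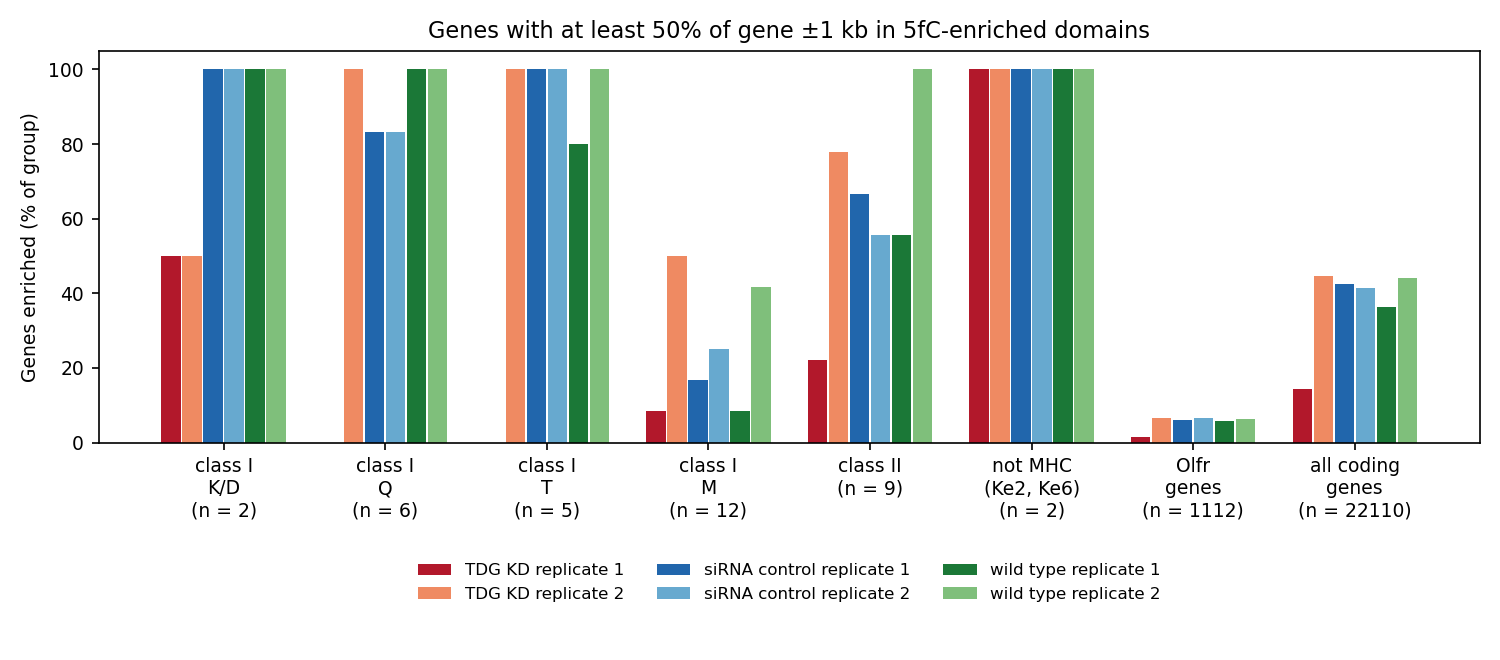
Share of genes (y axis, percent of the group) with at least 50% of gene ±1 kb in enriched domains, by class of H2 gene, for Olfr genes and for all protein-coding genes, with 1 bar per library. Q and T genes reach 80% to 100% outside TDG KD replicate 1, where none is enriched, M genes reach 8.33% to 50%, and all coding genes 36.3% to 44.5% outside that library.

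By class, most K/D, Q and T genes were enriched in the 5 libraries other than TDG KD replicate 1, and the M genes less often than all coding genes in every library but TDG KD replicate 2. Outside TDG KD replicate 1, 1 or 2 of the 2 K/D genes, 5 or 6 of the 6 Q genes and 4 or 5 of the 5 T genes were enriched per library. The counts for the 12 M genes were 6 in TDG KD replicate 2 (50%, against 44.5% of all genes), 2 and 3 in siRNA control (16.7% and 25%, against 42.6% and 41.5%), and 1 and 5 in wild type (8.33% and 41.7%, against 36.3% and 44%). Of the 9 class II genes 7 were enriched in TDG KD replicate 2, 6 and 5 in siRNA control and 5 and 9 in wild type. In TDG KD replicate 1 the counts were 1 K/D gene, 0 Q genes, 0 T genes, 1 M gene, 2 class II genes and both non-MHC genes. There 17 of the 36 members (47.2%) were mostly unconfident, against 32.3% of all coding genes and 47.1% of the other coding genes inside the cluster.

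To compare levels between libraries, the deposited value of each domain, pulldown reads minus input reads as a mean per bin, was averaged over gene ±1 kb. The mean of the library was then taken off, and the result was divided by the M reads of the library. The resulting excess is given in reads per kb per M reads, and 0 is the mean of the library. All genes inside 1 domain share its value. Widths of domains differed widely, with a median of 700 bp for enriched domains of wild type replicate 1 and 5900 to 24550 bp in the other libraries, so the values of neighbouring members are often 1 measurement. In TDG KD replicate 1 a single unconfident domain of 330.8 kb held the TSSs of H2-D1 and 5 Q gene models. In siRNA control replicates 1 and 2 and wild type replicate 2 single enriched domains of 132.6, 183.2 and 136.2 kb held H2-T24, H2-T23, H2-T22 and H2-T9.

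H2-K1 and H2-D1, the classical class I chains, were above the library mean in every library. H2-K1 had an excess of 0.136 and 0.104 in TDG KD, 0.156 and 0.124 in siRNA control and 0.259 and 0.258 in wild type, and 48.4% of its window was enriched in TDG KD replicate 2, just short of the call. H2-D1 had an excess of 0.0481 and 0.210 in TDG KD, 0.133 and 0.0807 in siRNA control and 0.377 and 0.140 in wild type. H2-K1 was higher in both wild-type libraries than in the other 4. For H2-D1 wild type replicate 1 was the highest library and TDG KD replicate 1, where its whole window was unconfident, the lowest. Both genes met the CpG island (CGI) criterion at the TSS, 200 bp in which GC exceeds 50% and CpGs exceed 0.6 times their expected number, and had 25.5 and 25.4 CpGs per kb.

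Among the Q genes H2-Q6 and H2-Q7, genes of the Qa-2 antigen, had the highest mean excess of all members, 0.305 over the 6 libraries. Their excess was 0.0481 and 0.294 in TDG KD, 0.196 and 0.113 in siRNA control and 0.957 and 0.220 in wild type, the same for both genes because they lay in 1 domain in every library. The 0.957 of wild type replicate 1 stands far above the rest, and without that library their mean was 0.174 and H2-Ke6 had the highest, 0.229. It came from a domain of 73.5 kb, the widest within the cluster and the 9th widest of the 389620 enriched domains of that library, and only 20.5% of the 40-mers in it occur once in mm9. In the other 5 libraries H2-Q6 and H2-Q7 had the value of H2-Q4, which lay in the same domain. H2-Q10, which encodes a class I chain secreted by the liver, had an excess of 0.0609 and 0.294 in TDG KD, 0.196 and 0.113 in siRNA control and 0.207 and 0.220 in wild type. The 2 gene models named H2-Q2 differed from each other in siRNA control, with 0.222 and 0.0801 for chr17:35457350-35462044 and -0.00671 and -0.0649 for chr17:35479187-35483707.

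H2-T23 encodes Qa-1, which presents leader peptides of other class I chains to receptors of natural killer cells. Its excess was 0.067 and 0.343 in TDG KD, 0.275 and 0.125 in siRNA control and 0.308 and 0.306 in wild type. TDG KD held both the highest and the lowest library, so the groups overlap. H2-T3, which encodes the thymus leukaemia antigen, had -0.195 and 0.244 in TDG KD, 0.241 and 0.0746 in siRNA control and 0.597 and 0.343 in wild type, and its value in TDG KD replicate 1 was the lowest of any member in any library. In that library 92.5% of the window of H2-T3 and the whole window of H2-T23 were unconfident. H2-T22, a ligand of gamma-delta T cells, and H2-T9 lay in the domain of H2-T23 in 5 libraries. In wild type replicate 1, which resolves them, H2-T9 had 0.657, H2-T23 0.308 and H2-T22 0.155.

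**Figure D3:**
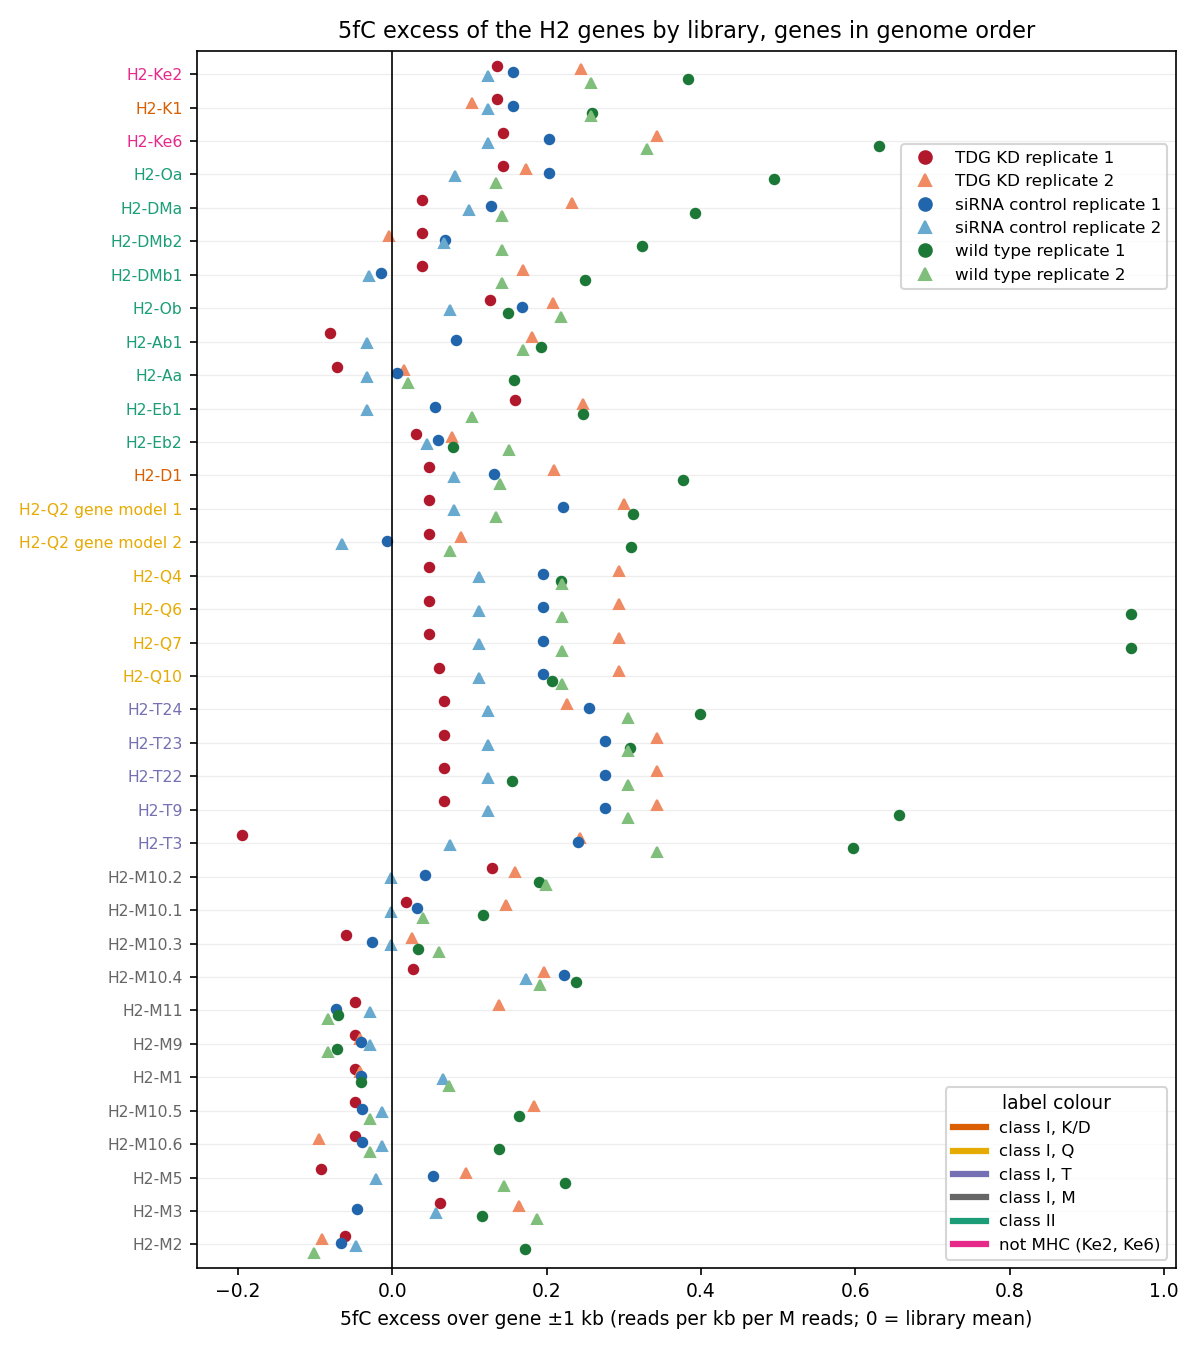
5fC excess over gene ±1 kb (x axis, reads per kb per M reads, 0 is the library mean) of the 36 H2 genes in genome order, with 1 point per library and gene names coloured by class. Q and T genes lie to the right of 0 in nearly all libraries, with H2-Q6 and H2-Q7 at 0.957 in wild type replicate 1, and several M genes lie at or below 0.

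H2-M3 presents peptides with a formylated methionine, a signature of bacteria and mitochondria, and it had intermediate levels. Its excess was 0.0623 and 0.164 in TDG KD, -0.0456 and 0.0572 in siRNA control and 0.117 and 0.188 in wild type. The lowest of the 6 was siRNA control replicate 1, and the TDG KD libraries both lay above both controls. In TDG KD replicate 1 the whole window of H2-M3 was unconfident. The genes named H2-M10, which in mouse are expressed in vomeronasal sensory neurons, were split. H2-M10.4 was enriched in 5 libraries, with an excess of 0.0267 and 0.197 in TDG KD, 0.223 and 0.174 in siRNA control and 0.239 and 0.192 in wild type. It had the highest mean excess of the M genes, 0.175.

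4 members, all of them M genes, were enriched in none of the 6 libraries, against 46.5% of all coding genes. H2-M9 had the lowest mean excess of all members, -0.0521, with -0.0479 and -0.0421 in TDG KD, -0.0398 and -0.0290 in siRNA control and -0.0715 and -0.0826 in wild type. It was below the mean of every library. Without wild type replicate 1 H2-M2 was the lowest, with a mean of -0.0732 against -0.0483 for H2-M9, and without TDG KD replicate 2 H2-M11, with -0.0604 against -0.0541. Over the 6 libraries H2-M2 followed with a mean of -0.0323, from -0.0615 and -0.0911 in TDG KD, -0.0657 and -0.0464 in siRNA control and 0.172 and -0.101 in wild type. H2-M10.6 had -0.0479 and -0.0950 in TDG KD, -0.0394 and -0.0129 in siRNA control and 0.138 and -0.0285 in wild type. Both H2-M2 and H2-M10.6 were above the library mean in wild type replicate 1 alone. The last of the 4, H2-M10.3, lay near the library mean, between -0.0601 and 0.0610.

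Among the class II genes the mean excess over the 6 libraries was 0.0159 to 0.13 for the 4 genes of classical chains (H2-Aa, H2-Ab1, H2-Eb1 and H2-Eb2) and 0.0929 to 0.205 for the 5 genes of accessory chains, and the ranges overlap. H2-Aa, the alpha chain of I-A, had an excess of -0.0719 and 0.0150 in TDG KD, 0.00700 and -0.0327 in siRNA control and 0.158 and 0.02 in wild type, and it was enriched in wild type replicate 2 alone. H2-Ab1, the beta chain of I-A, had -0.0800 and 0.181 in TDG KD, 0.0826 and -0.0327 in siRNA control and 0.193 and 0.170 in wild type. H2-Eb1, the beta chain of I-E, had 0.159 and 0.248 in TDG KD, 0.0559 and -0.0327 in siRNA control and 0.247 and 0.103 in wild type. All 3 were at the same value in siRNA control replicate 2 because 1 background domain of 66.1 kb held their TSSs. The gene models of H2-Aa and H2-Ab1 also overlap at their ends.

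H2-DMa, a chain of the molecule that loads peptides onto class II, had 0.0390 and 0.232 in TDG KD, 0.128 and 0.100 in siRNA control and 0.392 and 0.143 in wild type. It was above the mean of every library and was the 1 class II gene that met the CGI criterion. H2-Oa, a chain of the molecule that restrains DM, was enriched over its whole window in all 6 libraries, with 0.144 and 0.173 in TDG KD, 0.203 and 0.0821 in siRNA control and 0.494 and 0.135 in wild type. The other 2 members enriched in all 6 libraries, out of 3 in all and against 11.8% of all coding genes, were H2-Ke2 and H2-Ke6. Without TDG KD replicate 1 the count is 15, for which no share of all coding genes is given. H2-Ke2, which encodes a prefoldin subunit, had 0.136 and 0.244 in TDG KD, 0.156 and 0.124 in siRNA control and 0.383 and 0.258 in wild type. H2-Ke6, which encodes a hydroxysteroid dehydrogenase, had 0.144 and 0.343 in TDG KD, 0.203 and 0.124 in siRNA control and 0.631 and 0.33 in wild type. Both start in a CGI and hold 42.0 and 38.2 CpGs per kb, the most of all members.

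Class I as a whole and class II had similar medians, and the subfamilies of class I lay on either side of class II. The median excess of class I was 0.0481 and 0.184 in TDG KD, 0.133 and 0.0746 in siRNA control and 0.218 and 0.188 in wild type. That of class II was 0.0390 and 0.173 in TDG KD, 0.0684 and 0.0447 in siRNA control and 0.247 and 0.143 in wild type. Class I was higher in 5 libraries, and in wild type replicate 1 the difference, class I minus class II, was -0.0287. In TDG KD replicate 1 both medians, and that of the K/D, Q and T genes together, were each the value of a single unconfident domain. The K/D, Q and T genes together were higher than class II in all 6 libraries, by 0.00914 and 0.121 in TDG KD, 0.128 and 0.0684 in siRNA control and 0.0652 and 0.0773 in wild type, a grouping chosen after the values were seen. With members of at least 80% unique 40-mers alone, which leaves H2-D1 and H2-T3, the difference was -0.112 in TDG KD replicate 1 and stayed positive in the other 5 libraries. The M genes were lower than class II in all 6 libraries, with differences of -0.0868 and -0.0562 in TDG KD, -0.108 and -0.0517 in siRNA control and -0.119 and -0.0925 in wild type. The sign turned in wild type replicate 1 over gene bodies, at 0.0137, and within 1 kb of the TSS, at 0.0234, and in siRNA control replicate 2 within 1 kb of the TSS, at 0.0225. No test was made between classes because members share domains and are not replicates.

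The excess of the members moved with the sequence, whereas the order of the classes followed it only in part. Over the 36 members the excess correlated with CpGs per kb, with a Pearson r of 0.505 and 0.555 in TDG KD, 0.542 and 0.528 in siRNA control and 0.554 and 0.571 in wild type. It was lower where more 40-mers were unique, and the share of unique 40-mers gave an r of -0.150 and -0.468 in TDG KD, -0.508 and -0.421 in siRNA control and -0.585 and -0.431 in wild type. These are descriptions over genes that share domains, the input library and base composition. The median CpGs per kb were 25.4 for K/D, 20.5 for Q, 14 for T, 6.19 for M and 10.6 for class II genes, against 13.9 for the other coding genes of chromosome 17. The T genes had fewer CpGs per kb than the K/D genes but a higher median excess in every library other than TDG KD replicate 1. With members of at least 80% unique 40-mers alone, which leaves 13 class I genes (11 of them M genes and 0 of them Q genes) and 7 class II genes, class I minus class II was -0.122 to -0.0287, lower in every library. The T genes are high in excess and low in unique sequence, and the part of placement in their level was not tested.

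**Figure D4:**
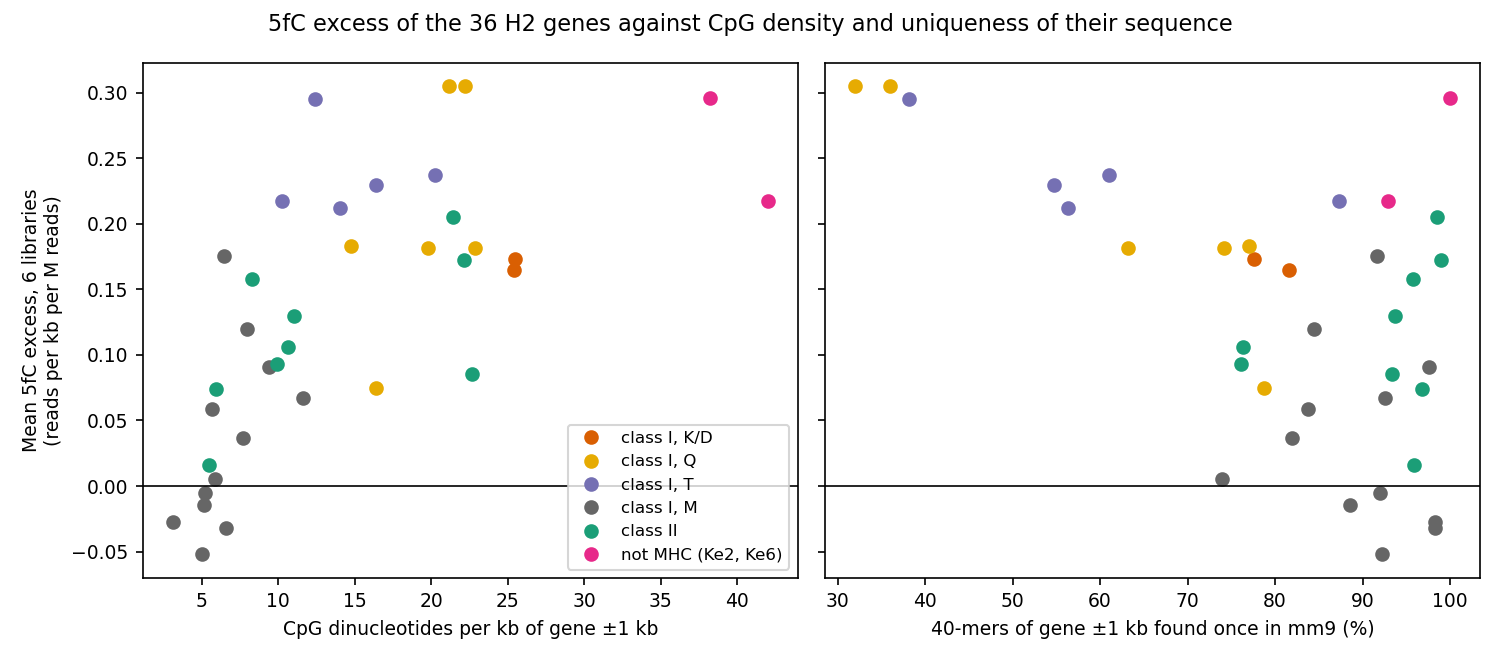
Mean 5fC excess over the 6 libraries (y axis, reads per kb per M reads) of the 36 H2 genes against CpGs per kb of gene ±1 kb (left) and the percent of its 40-mers found once in mm9 (right), coloured by class. The 6 lowest means belong to M genes with 3.11 to 6.59 CpGs per kb, although H2-M10.4, with 6.46, lies at 0.175, and H2-Q6, H2-Q7 and H2-T9, with 32.0% to 38.2% unique 40-mers, lie among the highest.

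At the start of the gene 16 of the 36 members (44.4%) met the CGI criterion, against 64.8% of all coding genes. They were 13 of the 25 class I genes, 1 of the 9 class II genes and both non-MHC genes. Outside TDG KD replicate 1, 13 to 16 of these 16 members were enriched per library, and 6 to 13 of the 20 members without a CGI. The same shares of all coding genes were 41.0% to 50.3% with a CGI and 27.6% to 33.9% without. In TDG KD replicate 1 they were 3 of 16 and 3 of 20 members (18.8% and 15%), against 16.7% and 10.1% of all coding genes.

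Wild type replicate 1 has the narrowest domains and places the enriched domains within the members most closely, in 1 library. 33 members had an enriched domain there, and the strongest one had a median width of 2.4 kb and was centred inside the gene in 24 cases, upstream in 7 and downstream in 2. Its centre was within 500 bp of the TSS in 2 members and within 2 kb in 18. No share of all coding genes is given for these counts, and the library has 389620 enriched domains. The counts thus describe the members and do not show whether they stood out. The widths ran from 0.1 to 73.5 kb, and the strongest domains of H2-DMb2 and H2-M10.3 were 100 bp wide and held no CpG. The strongest domain of H2-Eb1, chr17:34446221-34447320, was centred in a coding exon with 47.3 CpGs per kb and an excess of 0.61. That of H2-Ke6 was 13.0 kb wide with 43.5 CpGs per kb and an excess of 0.63. By contrast, the highest domain value of any member in this library, an excess of 2.06, belonged to 1200 bp in an intron of H2-Aa, chr17:34417421-34418620, with 2.5 CpGs per kb. In the whole cluster enriched sequence held 15.2 to 17.8 CpGs per kb and background sequence 7.87 to 9.32 per kb over the 6 libraries.

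The difference in excess between TDG KD and siRNA control over the cluster was smaller than the spread between replicates. The excess is relative to the mean of its own library, so a change common to the whole genome is taken off beforehand. By mass spectrometry the paper reports a higher overall level of formylcytosine after TDG KD. It describes the pulldown as giving enrichment relative to input and not absolute levels. Whether the absolute level at the H2 genes changed was not tested. The excess over the whole cluster was 0.0732 ± 0.0590 in TDG KD and 0.0563 ± 0.0258 in siRNA control (n = 2 each, ± SD), and an exact permutation test over libraries, two-sided, gave p = 1, where 2 against 2 allow no p below 0.333. The single values were 0.0314 and 0.115 in TDG KD, against 0.0745 and 0.0380 in siRNA control, so that the controls lay between the TDG KD libraries. Within the prefixes of the library names, a possible batch, the difference was -0.0431 for BHAM (replicate 1 of each group) and 0.0769 for EAR (replicate 2 of each group). It had opposite signs, and no test is possible with 1 library each. Without TDG KD replicate 1 the difference between the groups was 0.0586, and without TDG KD replicate 2 it was -0.0248. Gene windows of class I averaged 0.100 ± 0.116 in TDG KD and 0.0934 ± 0.0420 in siRNA control (exact permutation p = 1, n = 2 each), and those of class II 0.0840 ± 0.0621 and 0.0467 ± 0.0378 (exact permutation p = 0.667, n = 2 each).

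**Figure D5:**
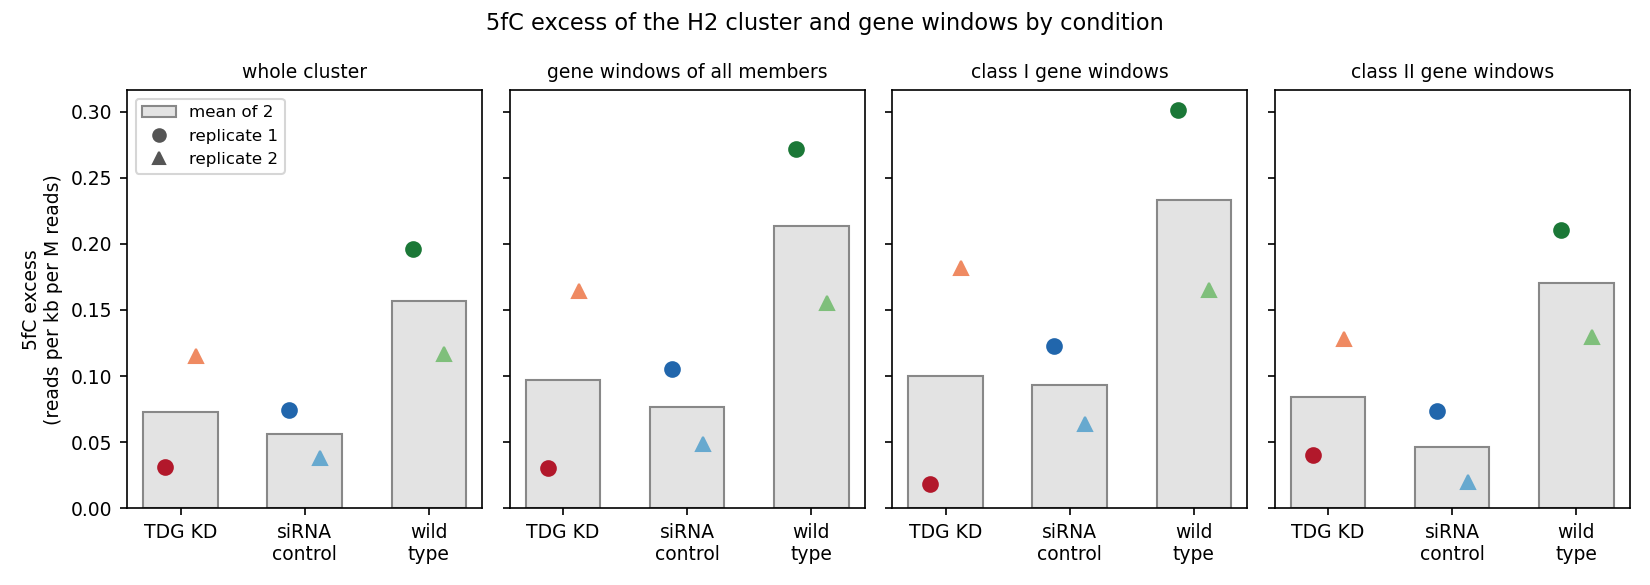
5fC excess (y axis, reads per kb per M reads) over the whole H2 cluster and over the gene windows of all members, class I and class II in TDG KD, siRNA control and wild type, with bars for the mean of 2 libraries and a point for each. The controls lie between the TDG KD libraries in each panel except the lower of the class II controls, and wild type has the highest single value in each.

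Gene by gene, both TDG KD values lay above both control values in 5 members (8.84% of all coding genes) and below both in 4 members (12.5% of all coding genes). Both counts depended on the TDG KD libraries. Without TDG KD replicate 1, 27 members lay above both controls (53.5% of all coding genes) and 6 below both (32.2%), and without TDG KD replicate 2, 5 lay above (21.2%) and 23 below (37.9%). Without siRNA control replicate 1, 10 lay above (35.6%) and 5 below (26.6%), and without siRNA control replicate 2, 6 lay above (15.6%) and 8 below (20.1%). With all 4 libraries the 5 above were H2-Eb1, H2-DMb1, H2-M10.2, H2-M3 and 1 H2-Q2 gene model, and the 4 below were H2-M1, H2-DMb2, H2-M10.6 and H2-M9. The largest difference between the group means among them was 0.192, for H2-Eb1. H2-DMb1, a beta chain of DM, had 0.0390 and 0.170 in TDG KD, against -0.0141 and -0.0295 in siRNA control, a difference of 0.126. H2-DMb2, the neighbouring beta chain gene, had 0.0390 and -0.00434 in TDG KD, against 0.0684 and 0.0668 in siRNA control, a difference of -0.0503. H2-M1 had -0.0479 and -0.0421 in TDG KD, against -0.0398 and 0.0654 in siRNA control, a difference of -0.0578. H2-DMb1 and H2-DMb2 share sequence, with 76.1% and 76.4% unique 40-mers, and were in 1 unconfident domain in TDG KD replicate 1. The whole windows of H2-M3 and of the H2-Q2 gene model were also unconfident there. H2-M1, H2-M9 and H2-M10.6 lay in 1 background domain of 340.8 kb in that library. H2-M1 and H2-M9 also shared their values in TDG KD replicate 2 and siRNA control replicate 1, so the members counted are not separate measurements. The median difference over the 36 members was 0.0164, and over all coding genes 0.0110.

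The siRNA cultures had a lower excess over the cluster than wild type, a difference that could not pass 0.05 in this design. The excess was 0.0647 ± 0.0384 in the 4 siRNA libraries and 0.157 ± 0.0561 in the 2 wild-type libraries (SD), a difference of -0.0920 (two-sided exact permutation test p = 0.0667, n = 4 and 2, the smallest p that such groups allow). The highest siRNA library, TDG KD replicate 2, had 0.115 and the lower wild-type library 0.117. Without wild type replicate 1 the difference was -0.0523, and without taking off the library mean it was -0.199 (exact permutation p = 0.2). Within the BHAM libraries the difference was -0.104. Over the gene windows of all members it was -0.127 (exact permutation p = 0.2), and there TDG KD replicate 2 exceeded wild type replicate 2, with 0.164 against 0.155. The libraries also differ in their whole range, since the median excess of all coding genes was 0.0182 and 0.0521 in TDG KD, 0.0240 and 0.00643 in siRNA control and 0.104 and 0.0436 in wild type. By rank among all coding genes the median member lay at the percentiles 61.4 and 69.7 in TDG KD, 66.4 and 70.5 in siRNA control and 67.2 and 66.5 in wild type, and the groups overlap.

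Libraries ordered the members alike to a varying degree. Over the 36 members the Pearson r between libraries was 0.256 to 0.462 for the 5 pairs with TDG KD replicate 1 and 0.496 to 0.841 for the other 10 pairs, which share the input library and wide domains. The highest r, 0.841, was between siRNA control replicate 1 and wild type replicate 2, which belong to different groups. By rank the highest pair was instead siRNA control replicates 1 and 2, with a Spearman rho of 0.811, against 0.797 for the former pair. By rank the pairs with TDG KD replicate 1 had 0.396 to 0.564 and the others 0.494 to 0.811, so the ranges overlap.

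Genes that serve the H2 molecules were described from a list of 23 genes, of which 22 were matched by 24 gene models. Psmb9 and Ciita had 2 models each, and the models are not separate measurements. Tap1, Tap2, Psmb8 and Psmb9 had the same value in both TDG KD libraries and in siRNA control replicate 2. Ifi30 and Rfxank had the same value in both TDG KD and both siRNA control libraries. Of the 24, 5 and 17 were enriched in TDG KD (20.8% and 70.8%, against 14.4% and 44.5% of all coding genes), 16 and 17 in siRNA control (66.7% and 70.8%, against 42.6% and 41.5%) and 16 and 18 in wild type (66.7% and 75%, against 36.3% and 44%). The median excess of the list was above that of all coding genes in every library. Tap1 and Tap2, the peptide transporter, and Psmb8 and Psmb9, subunits of the immunoproteasome, lie inside the cluster and were enriched in 5 libraries. Tapbp, which links the transporter to class I, starts before the first H2 gene, outside the cluster as taken here. Tapbp, and Psmb10 and Calr on another chromosome, were enriched in all 6. B2m, the light chain of all class I molecules, was enriched in TDG KD replicate 2 and wild type replicate 2 alone, with an excess of -0.0247 and 0.153 in TDG KD, 0.0127 and -0.0507 in siRNA control and 0.116 and 0.0937 in wild type. Canx, Pdia3 and Erap1, which fold class I chains or trim their peptides, were enriched in none.

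For class II, Ciita, the master activator of class II transcription, was enriched in every library but TDG KD replicate 1. Its 2 gene models had an excess of 0.110 and 0.264 in TDG KD and of 0.0814 in siRNA control replicate 2. Cd74, the invariant chain, had 0.135 and 0.312 in TDG KD, 0.157 and 0.127 in siRNA control and 0.368 and 0.271 in wild type. Ifi30 and Rfxank were enriched in all 6 libraries, Rfx5 in 5, Ctss in 1 and Rfxap in none. Of the genes of the interferon response, which induces MHC genes, Irf1 and Ifngr2 were enriched in 5 libraries and Ifngr1 in none.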

How the data were processed

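5fC was measured by pulldown and single-end sequencing in 6 libraries of J1 cells, with 1 input. The authors aligned reads to mm9 with BWA (0.6.1 in the submitters' processing notes), kept reads with a mapping quality of at least 15 and ran rseg on each library with the input as control and bins of 100 bp. The deposited domain value is a score, the mean read difference per bin, unscaled for depth, and a second deposited score, which grows with width, was not used. Reads per library came from the study's supplement. With no read counts by region, counting error is not given and precision rests on 2 replicates.

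Windows, states and excess were computed on GENCODE M1 and mm9 sequence in Python 3.11.15 (numba 0.67.0, SciPy 1.17.1, NumPy 2.4.6), with figures by Matplotlib 3.10.9. The members, gene lists and classes were chosen with earlier results of these data known. Genes were named by role (H2-K1, H2-D1, H2-T23, H2-M3, H2-Aa, H2-Ab1, H2-Eb1, H2-DMa), by enrichment in all or none of the libraries, and by the 2 highest and 2 lowest means and the 2 largest differences each way. Others are named as examples after their values were seen. Replicate numbers follow the order of the records and pair no libraries. Conditions were compared by exact two-sided permutation over libraries. Window averages and 40-mer counts were tested on simulated data. The alternatives were other windows and thresholds, unconfident domains, dropped low domains, other scales, unique members and left-out libraries. mm9 is C57BL/6J sequence, and its differences from 129 were not used here. Some genes of the lists are not reported here.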

Additional observations from a re-analysis of the deposited data

How the results depend on the processing

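With unconfident sequence counted as enriched, 21 members were enriched in TDG KD and 13 in all 6 libraries, against 5 and 3. Without the 25% of enriched domains of lowest value the counts were 2 in TDG KD, 12 in wild type (against 20) and 0 in all 6 libraries. At 75% of the window 9 members were enriched in wild type. Leaving out 1 library gave 6 to 27 members in TDG KD and 3 to 15 in all remaining libraries, the high counts without TDG KD replicate 1. For most of these settings no share of all coding genes is given. The counts thus show how far the calls moved and not whether the H2 genes stood out.

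Class I minus class II, as medians of excess, was 0.0101 in TDG KD, 0.0470 in siRNA control and 0.00816 in wild type as the mean of 2 libraries. It was 0.0420 in TDG KD and 0.0715 in wild type over gene bodies, and 0.0554, 0.0987 and 0.0944 in the 3 conditions within 1 kb of the TSS. With members of at least 80% unique 40-mers it was -0.0603, -0.0839 and -0.0487, and with the M genes left out, added after seeing the data, 0.0649, 0.0980 and 0.0712. On the deposited value per bin it was -0.00405 in wild type, and with 1 wild-type library left out -0.0287 to 0.0450.

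TDG KD minus siRNA control over the cluster was 0.0169, and -0.0632 without taking off the library mean. It was -0.0431 within BHAM and, with 1 library left out, -0.0248 to 0.0586. Without scaling by reads 2 members in place of 4 lay below control. With 1 library left out, added after seeing the data, 5 to 27 lay above and 5 to 23 below. The siRNA cultures minus wild type, -0.0920, kept its sign under every alternative run, at -0.132 to -0.0523 with 1 library left out and -0.199 without taking off the library mean. The causes of these changes were not tested. The labels give no replicate numbers. With the prefix of the library names as a block, added after seeing the data, TDG KD minus siRNA control over the cluster was again 0.0169 (exact permutation within 2 prefixes, p = 1, the smallest possible being 0.5). Domain width, the 20.4 M reads of TDG KD replicate 1 and 2 replicates per condition limit what can be resolved.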

Other observations

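A few M genes were above the library mean in 1 library alone. H2-M2, with 98.2% unique 40-mers, and H2-M10.6, with 88.6%, were so in wild type replicate 1, at an excess of 0.172 and 0.138, where 9 of the 12 M genes lay above the mean. The 16 Olfr genes inside the cluster also had a median above 0 in that library, 0.0581, and -0.0911 to -0.0464 in the other 5. H2-M11, with 98.3% unique 40-mers, was so in TDG KD replicate 2, at 0.138, where 8 of the 12 M genes lay above the mean. In these 2 libraries most coding genes also lay above the mean, since their median excess was 0.104 in wild type replicate 1 and 0.0521 in TDG KD replicate 2. The counts of M genes are therefore not read as particular to them. Within H2-Aa the 1200 bp in an intron with an excess of 2.06 in wild type replicate 1 held 3 CpGs.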
